A study of Glycine max with 24 samples.

Results

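Glyma.13G347500, Glyma.13G347600, Glyma.13G347700 and Glyma.13G347800 on soybean chromosome 13 and Glyma.15G026300, Glyma.15G026400 and Glyma.15G026500 on chromosome 15 form a pair of clusters of neighbouring lipoxygenase genes. These 7 IDs were chosen as a list of neighbouring genes, by a rule that uses no measured value although earlier results of these data were known, out of the 57105 genes that the leaf and root count tables share. The leaf table writes the prefix GLYMA_ in place of Glyma., and IDs are given below without a prefix. RefSeq's genes of the assembly Glycine_max_v4.0 include LOX2, LOX1.1, LOXB1 and LOX7 as the protein-coding genes of the lipoxygenase stretch on chromosome 13, and LOX3, LOC100803358 and VLXB side by side on chromosome 15. None of its 59048 rows holds an ID of the count tables (0 matches), so no RefSeq name was tied to a single ID and the genes are described by ID.

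Lipoxygenases are iron-containing dioxygenases that add oxygen to linoleic and linolenic acid. The fatty acid hydroperoxides they form are the starting material for jasmonates, for volatile leaf aldehydes and for other oxylipins that plants make after wounding and attack. In soybean, the enzymes LOX1, LOX2 and LOX3 are abundant seed proteins known for the beany flavour of soy products, while vegetative lipoxygenases accumulate in leaves and other organs, in part as a store of nitrogen.

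The 24 libraries came from leaf and root of Glycine max. Wild-type Jack, a soybean cultivar, was compared with transgenic plants that, per the series' design text, overexpress GmNFYA. NF-YA proteins are a subunit of the CCAAT-binding NF-Y transcription factor complex. Each genotype was untreated (0 h) or exposed to 150 mM NaCl for 6 h, with 3 libraries per group and 8 groups. The labels give neither plant age, promoter, number of lines nor the origin of the replicates. The p-values therefore measure only the spread between these libraries, which may be technical. The titles of all GmNFYA libraries carry the same code, N3. An effect of GmNFYA cannot be told apart from any other difference between these plants and Jack, such as one of the line or the insertion. No untreated group at 6 h is labelled, so NaCl and elapsed time cannot be told apart. Bulk tissue was sequenced, and a change in cell composition cannot be told apart from a change in RNA per cell.

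Reads assigned to genes numbered 17696429 to 21053889 per leaf library and 17005570 to 23459341 per root library. Levels are CPM, counts per 1e6 gene reads after scaling within each tissue. They are not divided by gene length and are compared only between samples of the same gene. Changes are log2 fold changes ± SE from edgeR's quasi-likelihood test, and an ID was called where the p, adjusted by Benjamini-Hochberg over all IDs tested in that comparison, was under 0.05. The labels do not say which ID carries the transgene, so its level could not be checked. ID 02G303800, picked because of its values, was at 0.924 to 27.6 CPM over the 12 Jack libraries of both tissues and at 338 to 780.3 CPM over the 12 GmNFYA libraries. Which IDs mark leaf or root could not be looked up without annotation, and the tissue labels were not checked in that way.

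Of the 7 lipoxygenase IDs, 4 had reads in every library and the other 3 had few or none. 13G347600 had 0 reads in the 12 leaf libraries, which allows up to 3 reads in all, or 0.0127 CPM (counting error only), and 10 reads over the 12 root libraries. 13G347500 had 8 reads over the leaf libraries and 21 over the root libraries, at most 5 in any library. 15G026300 had 3 reads in leaf and 128 in root. The minimum count removed 13G347500 and 13G347600 from every test, and 15G026300 from the leaf tests. Reads that aligned to more than 1 place count for no gene, so reads shared between near-identical copies would be missing from these values.

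The other 4 IDs, 13G347700, 13G347800, 15G026400 and 15G026500, supplied nearly all of the reads. Together the 7 IDs took 0.65 ± 0.218% (SD, n = 3) of all gene reads in untreated Jack leaf and 0.355 ± 0.0199% with NaCl. In GmNFYA leaf they took 0.649 ± 0.056% and 0.423 ± 0.0452%. In root the share ran the other way with treatment, from 0.614 ± 0.0704% to 0.981 ± 0.102% in Jack and from 0.323 ± 0.0231% to 0.731 ± 0.0868% in GmNFYA. The highest share in any library was 1.09%, in Jack root with NaCl.

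**Figure D1:**
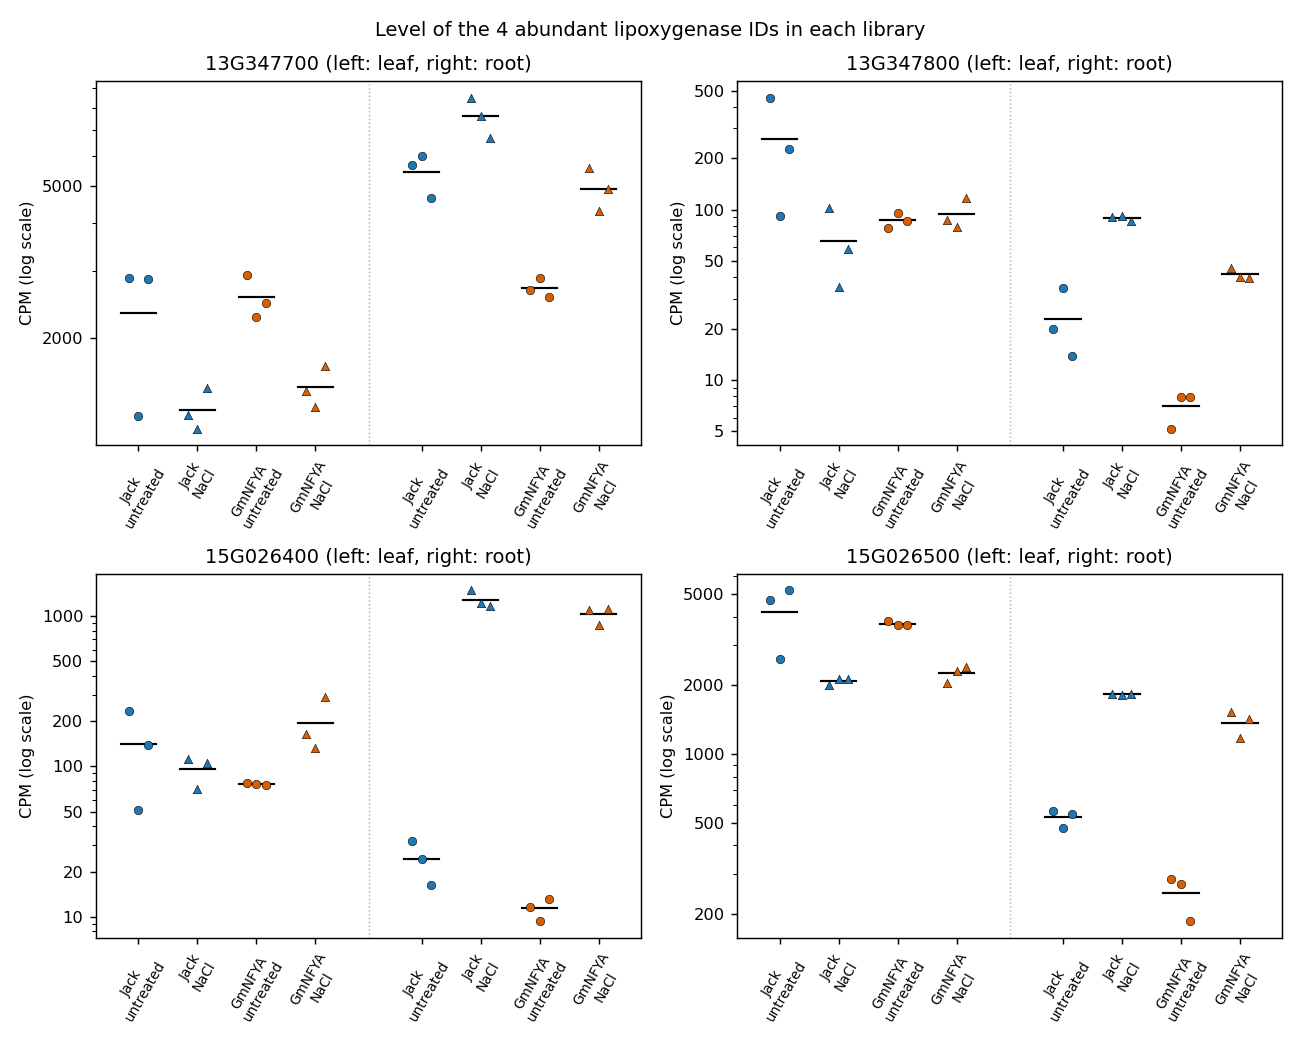
Level of 13G347700, 13G347800, 15G026400 and 15G026500 in each of the 24 libraries (CPM, log scale, scaled within each tissue). Points stand for libraries in the order of replicates 1 to 3, circles are untreated and triangles are NaCl, blue is Jack and orange is GmNFYA, and a line marks the group mean. In root every NaCl triangle lies above every untreated circle of its genotype, while in leaf 15G026500 lies lower with NaCl in both genotypes. The share of all IDs that separate in this way was not counted.

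In Jack roots, every lipoxygenase ID that could be tested rose with NaCl. All 5 of the tested IDs, out of 7, were called higher, against a background of 29% of the 36390 IDs tested in root. None of the groups overlapped, but the share of all IDs without overlap was not counted. One of the 5, 15G026300, passed the minimum count only through the NaCl libraries, where it was high, and had to differ. The median log2 fold change over the 5 was 1.98, beside -0.0088 over all IDs tested. Both the count of 5 and this median include 15G026300. The other tested IDs, all called higher too, had log2 fold changes from 0.48 to 5.74.

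The change of 15G026400, the middle ID of the chromosome 15 cluster, was the largest of the tested members. Its CPM was 31.9, 24.3 and 16.2 in the untreated Jack roots and 1487, 1221 and 1160.3 with NaCl. The lowest treated library was far above the highest untreated one. The increase was 53.6-fold (log2 5.74 ± 0.24, adjusted p = 7.3e-10), the fold change at rank 143 from the top of 36390. 15G026500, beside it, went from 563, 479 and 551 CPM to 1836, 1822 and 1844 CPM. The 3 treated libraries were nearly alike, with an SD of 10.8 CPM around a mean of 1834. The increase was 3.45-fold (log2 1.79 ± 0.15, adjusted p = 4.61e-08). 15G026300, the first ID of the cluster, had 0, 4 and 0 reads untreated and 15, 26 and 18 reads with NaCl (log2 3.87 ± 0.81, adjusted p = 0.00069). At these counts the size of its change is known only roughly, with a 95% interval of the fold that starts at 4.47.

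On chromosome 13 the Jack root changes were smaller. 13G347800, the last ID of the cluster, was at 19.9, 34.6 and 13.8 CPM untreated and at 90.8, 91.8 and 85.7 CPM with NaCl. It rose 3.96-fold (log2 1.98 ± 0.27, adjusted p = 0.000119). 13G347700 was already high without NaCl, at 5668, 5987 and 4653 CPM, and stood at 8518, 7627 and 6665 CPM with it. Its increase of 1.4-fold (log2 0.48 ± 0.14, adjusted p = 0.0061) was the smallest of the cluster members in Jack root, and the groups still did not overlap. 13G347500 had 2 reads in all over the untreated Jack roots and 12 with NaCl, too few to test.

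GmNFYA roots showed the same set of increases. All 5 tested IDs were called higher again, against a background of 28.6%, with a median log2 fold change of 2.58, beside -0.0014 over all IDs. Untreated and NaCl libraries did not overlap, and the share of all IDs without overlap was not counted here either. As in Jack, 15G026300 passed the minimum count only through its NaCl libraries and had to differ. It is part of the count of 5 and of the median. The other tested IDs, all called higher too, had log2 fold changes from 0.86 to 6.5. The Jack and GmNFYA comparisons share no library but take their dispersions from the same fit.

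In GmNFYA roots, 15G026400 was at 11.7, 9.32 and 13.1 CPM untreated and at 1093, 869.6 and 1124 CPM with NaCl. It rose 90.6-fold (log2 6.5 ± 0.25, adjusted p = 2.31e-10), at rank 89 from the top. 15G026500 was at 285, 271 and 186 CPM untreated and at 1524, 1179 and 1425 CPM with NaCl, 5.56-fold higher (log2 2.48 ± 0.15, adjusted p = 1.18e-09). Replicate 3 was the lowest untreated library for 15G026500 and the highest for 15G026400. 13G347800 went from 5.16, 7.88 and 7.93 CPM to 45.1, 40.3 and 39.7 CPM, 5.97-fold higher (log2 2.58 ± 0.30, adjusted p = 2.95e-05). 13G347700 went from 2678, 2872 and 2566 CPM to 5558, 4294 and 4899 CPM, 1.82-fold higher (log2 0.86 ± 0.14, adjusted p = 5.05e-05). 15G026300 had 3, 0 and 3 reads untreated and 21, 13 and 25 with NaCl (log2 3.33 ± 0.75, adjusted p = 0.00122). The order of the changes, from 15G026400 down to 13G347700, was the same as in Jack. In both genotypes the root calls of 13G347700, 13G347800, 15G026400 and 15G026500 held with every library left out in turn. Those of 15G026300 held too, but they follow from the minimum count and say nothing about steadiness.

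In leaf, NaCl went with lower levels of the most heavily read ID of each cluster. In Jack leaves, 3 of the 4 tested IDs, out of 7, were called lower, against a background of 15.7% of the 35222 IDs tested in leaf. The median log2 fold change of the 4 was -0.92, beside -0.012 over all IDs. In GmNFYA leaves 2 of 4 were called lower, against 18.2%, and 1 higher, against 17.8%, with a median of -0.29 beside -0.016.

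15G026500 was called lower in both genotypes. In Jack leaf its CPM was 4724, 2620.2 and 5208.5 untreated and 2017, 2144 and 2132 with NaCl, 1.99-fold lower (log2 -0.996 ± 0.20, adjusted p = 0.00247). The groups did not overlap, and the call held with every library left out in turn. In GmNFYA leaf it was at 3817, 3689 and 3670.2 CPM untreated and at 2048, 2316 and 2412 CPM with NaCl, 1.65-fold lower (log2 -0.72 ± 0.20, adjusted p = 0.0132). This call was lost without NaCl replicate 1 (adjusted p = 0.0606).

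13G347700 was at 2868, 1252 and 2864 CPM in untreated Jack leaf and at 1257, 1159 and 1483 CPM with NaCl. Untreated replicate 2 lay among the treated libraries. The difference was called (log2 -0.84 ± 0.26, adjusted p = 0.0244) but lost without untreated replicate 1 or 3 (adjusted p = 0.0982 and 0.0877), without NaCl replicate 1 or 2 (0.058 and 0.0773) and in a fit of the 2 compared groups alone (0.0904). In GmNFYA leaf it went from 2919, 2274 and 2472 CPM to 1453, 1323 and 1694 CPM, with no overlap (log2 -0.78 ± 0.26, adjusted p = 0.0319). That call was lost without untreated replicate 1 or 3 (adjusted p = 0.103 and 0.0674) and without NaCl replicate 1 or 2 (0.0889 and 0.111).

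13G347800 varied widely between the Jack leaves. It was at 454, 92.2 and 227 CPM untreated and at 102, 35 and 58.2 CPM with NaCl, and the groups overlapped. The difference was called (log2 -1.98 ± 0.54, adjusted p = 0.0182) but lost without untreated replicate 1 (adjusted p = 0.0643), without NaCl replicate 2 or 3 (0.0596 and 0.0633) and in a fit of the 2 groups alone (0.0574). In GmNFYA leaf it was at 77.9, 95.8 and 85.2 CPM untreated and at 87.2, 78.9 and 118 CPM with NaCl (log2 0.13 ± 0.52, 95% interval -1.03 to 1.29, adjusted p = 0.871).

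15G026400, the ID with the steepest increase in root, was called higher with NaCl in GmNFYA leaf, where 15G026500 was called lower. It was at 78, 76.8 and 75.7 CPM untreated, the tightest group of any of the 4 IDs in leaf, and at 164, 134 and 290 CPM with NaCl, 2.55-fold higher (log2 1.35 ± 0.47, adjusted p = 0.0479). NaCl replicate 3, which had the highest value, also had the largest share of multiply aligned reads in its group, 9.29% beside 5.01 and 4.87%, and its part in the result was not tested. Without it the change was 0.98 on the log2 scale (adjusted p = 0.148). The call was also lost without untreated replicate 1, 2 or 3 (adjusted p = 0.106, 0.113 and 0.111), without NaCl replicate 1 (0.0627) and with no minimum count (0.0838). In Jack leaf it was at 234, 51.2 and 138 CPM untreated and at 113, 70.3 and 105 CPM with NaCl (log2 -0.56 ± 0.47, 95% interval -1.59 to 0.48, adjusted p = 0.388).

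In untreated Jack leaf, replicate 2 had the lowest level of all 4 IDs, and the 7 IDs took 0.399% of its gene reads, against 0.791 and 0.76% in replicates 1 and 3. The coefficient of variation in that group was 40% for 13G347700, 71% for 13G347800, 64.8% for 15G026400 and 32.9% for 15G026500. In untreated GmNFYA leaf it was 12.9, 10.4, 1.46 and 2.15%. With NaCl it was 12.8, 52.5, 23.6 and 3.34% in Jack leaf and 12.6, 21.5, 42.2 and 8.33% in GmNFYA leaf. Over all tested IDs, the mean correlation of replicate 2 with the other libraries of its group was 0.964, against 0.971 and 0.972 for replicates 1 and 3.

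**Figure D2:**
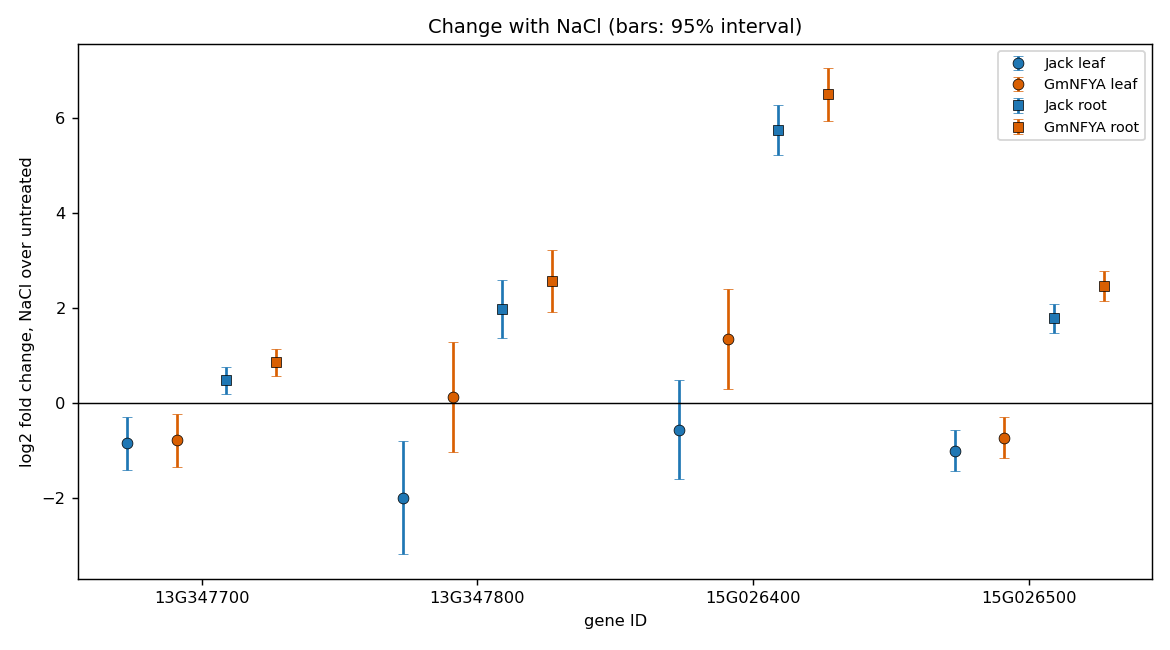
Log2 fold change with NaCl for 13G347700, 13G347800, 15G026400 and 15G026500 (points, with 95% intervals), circles for leaf and squares for root, blue for Jack and orange for GmNFYA. All 8 root values lie above 0, from 0.48 for 13G347700 in Jack to 6.5 for 15G026400 in GmNFYA, and each lies above both leaf values of the same ID.

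The NaCl response of leaf and root was compared directly in a fit over all 24 libraries. In Jack, 4 of 5 tested IDs were called with a more positive change in root, against a background of 14.2% of 39003 IDs. In GmNFYA 4 of 5 were called, against 17.5%. The difference between the root and the leaf change of 15G026400 was 6.32 ± 0.57 on the log2 scale in Jack (adjusted p = 2.26e-07) and 5.18 ± 0.56 in GmNFYA (adjusted p = 9.03e-07). For 15G026500 it was 2.81 ± 0.27 in Jack and 3.23 ± 0.27 in GmNFYA (adjusted p = 1.2e-07 and 7.65e-09). For 13G347800 it was 3.99 ± 0.63 in Jack and 2.48 ± 0.63 in GmNFYA (adjusted p = 0.000118 and 0.00522). For 13G347700 it was 1.35 ± 0.31 in Jack and 1.67 ± 0.31 in GmNFYA (adjusted p = 0.00217 and 0.000199). 15G026300 had too few leaf reads for a value.

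Levels in root and leaf were compared within each treatment. The levels in this paragraph are CPM scaled over all 24 libraries. In untreated Jack, 3 of 5 tested IDs were called lower in root than in leaf, against a background of 33.7%, and 1 higher, against 36.2%. 15G026500 was at 491 ± 44.3 CPM in root and 4580.1 ± 1503 CPM in leaf, 9.33-fold lower in root (adjusted p = 1.74e-12). 13G347800 was 13.5-fold lower in root (adjusted p = 9.96e-07) and 15G026400 6.93-fold lower (adjusted p = 4.28e-06). 13G347700 was 1.97-fold higher in root (adjusted p = 0.00039). In untreated GmNFYA the corresponding differences were 17.5-fold lower for 15G026500, 14.4-fold lower for 13G347800 and 7.88-fold lower for 15G026400 (adjusted p = 4.22e-14, 1.11e-06 and 2.44e-06). These were the 3 of 5 called lower, against a background of 34.2%. 13G347700 did not pass the test there (log2 -0.14 ± 0.22, adjusted p = 0.584).

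With NaCl, 15G026400 was higher in root than in leaf in both genotypes. It was at 1184 ± 164 CPM in root and 103 ± 23.8 CPM in leaf of Jack, 11.5-fold higher in root (adjusted p = 2.3e-07), and at 955 ± 127 and 207 ± 86.5 CPM in GmNFYA, 4.61-fold higher (adjusted p = 4.42e-05). 13G347700 was 5.03-fold higher in root in Jack (adjusted p = 4.13e-09) and 2.89-fold higher in GmNFYA (adjusted p = 1.9e-06). 15G026500 was 1.87-fold lower in root in GmNFYA (adjusted p = 0.000181), and in Jack the log2 difference was -0.41 ± 0.19 (adjusted p = 0.0532, and 0.0301 in a fit of those 2 groups). 13G347800 was 2.59-fold lower in root in GmNFYA (adjusted p = 0.00908), and in Jack the log2 difference was 0.24 ± 0.43 (adjusted p = 0.634). 15G026300 had 59 reads in the NaCl roots of each genotype, against 0 reads in the NaCl leaves of Jack and 2 in those of GmNFYA. In all, 3 of 5 tested IDs were called higher in root in Jack with NaCl, against a background of 34.4%, and 3 higher and 2 lower in GmNFYA, against 35.5 and 33.9%. In each genotype 1 of the 3 was 15G026300, which passed the minimum count only through the NaCl roots and had to differ. Of the 4 well-read IDs, 15G026400 was the one called lower in root without NaCl and higher in root with it, in both genotypes.

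In root, GmNFYA held less of the 4 well-read lipoxygenase transcripts than Jack before treatment. Of 5 tested IDs, 4 were called lower in untreated GmNFYA roots, against a background of 12.6%. The CPM of each library can be read from the root values above, and for all 4 IDs the highest GmNFYA library lay below the lowest Jack library. The share of all IDs that separated in this way was not counted. 13G347800 was 3.24-fold lower (log2 -1.69 ± 0.30, adjusted p = 0.00277), 15G026500 2.15-fold lower (log2 -1.10 ± 0.14, adjusted p = 5.75e-05), 15G026400 2.12-fold lower (log2 -1.08 ± 0.22, adjusted p = 0.00365) and 13G347700 2.01-fold lower (log2 -1.01 ± 0.14, adjusted p = 8.2e-05). The median over the 5 was -1.08, beside 0.013 over all IDs. These 4 calls held with every library left out in turn. Multiply aligned reads, which count for no gene, were 9.64 ± 0.59% of the reads of untreated Jack roots and 5.53 ± 0.343% of those of untreated GmNFYA roots, and their part in the difference was not tested. 15G026300 had 4 reads in untreated Jack and 6 in untreated GmNFYA (adjusted p = 0.863).

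With NaCl, 2 of 5 were called lower in GmNFYA, against a background of 9.9%. 13G347700 was 1.55-fold lower (log2 -0.63 ± 0.14, adjusted p = 0.00562) and 13G347800 2.15-fold lower (log2 -1.10 ± 0.26, adjusted p = 0.0182). The call for 13G347800 was lost without GmNFYA replicate 2 or 3 or Jack replicate 2 (adjusted p = 0.0655, 0.0648 and 0.0515). 15G026500 was just outside the threshold (log2 -0.41 ± 0.14, adjusted p = 0.0555) and was called by DESeq2 (0.0281), with no minimum count (0.0489) and in a fit of the 2 groups alone (0.0388). 15G026400 did not pass (log2 -0.33 ± 0.20, 95% interval -0.75 to 0.10, adjusted p = 0.282). All 4 IDs had their highest GmNFYA library below their lowest Jack library here too. The share of all IDs that separated in this way was again not counted, so this separation cannot be weighed and adds nothing to the tests. 15G026400 and 15G026500 were not called.

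In leaf no lipoxygenase ID was called between the genotypes. In untreated leaf 0 of 4 tested IDs were called higher or lower by edgeR's quasi-likelihood test, against a background of 4.51%. 13G347800 had the largest difference (log2 -1.58 ± 0.53, unadjusted p = 0.014, adjusted p = 0.13), the only one of the 4 at an unadjusted p under 0.05. DESeq2 called it (adjusted p = 0.0423), and so did edgeR without untreated Jack replicate 2 (0.0392). For 15G026500 the 95% interval of the log2 difference was -0.60 to 0.26 and for 13G347700 -0.42 to 0.69. For 15G026400 it was wider, from -1.92 to 0.16. With NaCl, 0 of 4 were called in either direction, against 9.61%, also 0 by DESeq2 and 0 at an unadjusted p under 0.05. The backgrounds themselves were unsteady: with 1 library left out, 511 to 1761 IDs were called in untreated leaf, against 1590, and 1527 to 3307 in NaCl leaf, against 3384. The largest NaCl leaf difference was that of 15G026400 (log2 1.03 ± 0.47, 95% interval -0.02 to 2.07, adjusted p = 0.217).

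**Figure D3:**
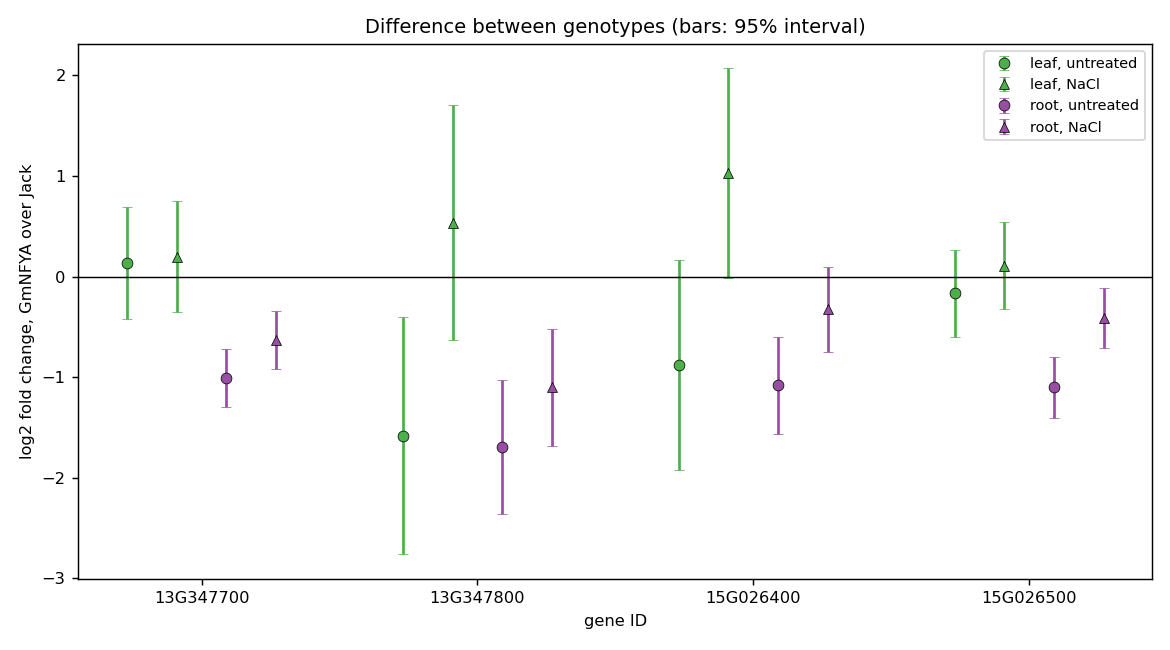
Log2 fold change of GmNFYA over Jack for 13G347700, 13G347800, 15G026400 and 15G026500 (points, with 95% intervals), green for leaf and purple for root, circles for untreated and triangles for NaCl. The 4 untreated root values lie between -1.69 and -1.01, and each is further from 0 than the NaCl root value of the same ID.

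Whether NaCl changed these transcripts by different amounts in the genotypes was tested as an interaction. In root, 1 of 5 tested IDs was called, with a more positive change in GmNFYA, against a background of 4.28%. This was 15G026500 (log2 difference 0.69 ± 0.20, adjusted p = 0.045). The call was lost with any 1 of 8 libraries left out: untreated GmNFYA replicate 2 or 3 (adjusted p = 0.052 and 0.0601), GmNFYA NaCl replicate 1 or 3 (0.119 and 0.0886), untreated Jack replicate 1 or 3 (0.105 and 0.0929) and Jack NaCl replicate 2 or 3 (0.0897 and 0.0698). It was also lost with the replicate number as a block (0.0537). For 15G026400 the difference was 0.76 ± 0.29 (adjusted p = 0.141, and 0.02 without untreated Jack replicate 3), for 13G347800 0.59 ± 0.39 (adjusted p = 0.419) and for 13G347700 0.38 ± 0.19 (adjusted p = 0.254).

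In leaf 0 of 4 IDs were called for the interaction by edgeR's quasi-likelihood test, against a background of 2.45%, and 0 by DESeq2. With 1 library left out, that background ran from 229 to 1339 IDs, against 863. At an unadjusted p under 0.05 there were 2, 13G347800 (log2 difference 2.12 ± 0.74, adjusted p = 0.185) and 15G026400 (1.91 ± 0.66, adjusted p = 0.181). Their 95% intervals ran from 0.46 to 3.77 and from 0.43 to 3.38. 15G026400 was called without untreated Jack replicate 2 (log2 difference 2.30, adjusted p = 0.0332). The interaction intervals of 13G347700 and 15G026500 were -0.72 to 0.85 and -0.34 to 0.89.

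The reads of neighbouring IDs within a library give a ratio that needs no scaling. The ratio is not one of transcript amounts, since gene lengths were not used, and only its change between samples is described. For every 100 reads of 15G026500, untreated Jack roots had 5.66, 5.09 and 2.93 reads of 15G026400, and those with NaCl had 81, 67 and 62.9. Untreated GmNFYA roots had 4.1, 3.44 and 7.03, and those with NaCl had 71.7, 73.7 and 78.9. With NaCl the genotypes overlapped in this ratio. In leaf it was 1.95 to 4.96 in untreated Jack, 3.28 to 5.59 in Jack with NaCl, 2.04 to 2.08 in untreated GmNFYA and 5.77 to 12 in GmNFYA with NaCl. The groups overlapped in Jack leaf and not in GmNFYA leaf.

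**Figure D4:**
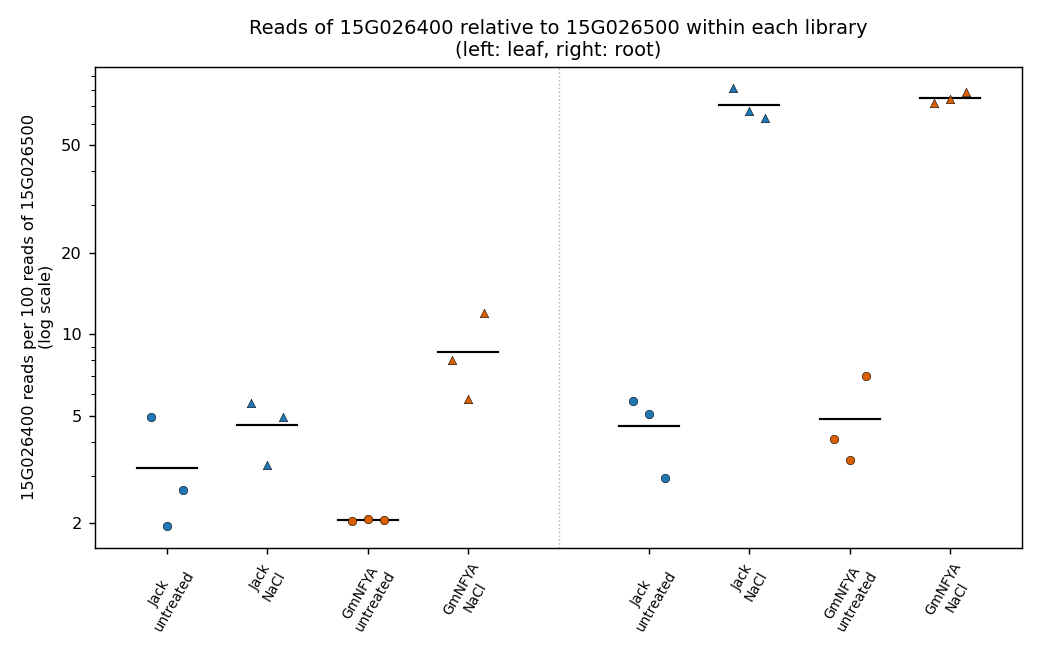
Reads of 15G026400 per 100 reads of 15G026500 in each library (log scale), in the same symbols and replicate order as the plot of levels, with a line at the group mean. The 6 root libraries with NaCl lie between 62.9 and 81, and the highest of the other libraries, a GmNFYA leaf with NaCl, is at 12.

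On chromosome 13, for every 100 reads of 13G347700 there were 0.408 ± 0.149 reads of 13G347800 in untreated Jack roots and 1.19 ± 0.111 with NaCl. In GmNFYA roots the values were 0.259 ± 0.0597 and 0.853 ± 0.074. In leaf the ratio was 10.4 ± 4.74 in untreated Jack and 5.03 ± 2.73 with NaCl, and 3.44 ± 0.772 and 6.3 ± 0.551 in GmNFYA.

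Taken over both clusters, some of the genes that border them rose and some fell with NaCl in root, and the others were not called or not tested. Of the 10 IDs that flank the chromosome 13 cluster, 5 on each side by ID number, 9 were tested in root. In Jack 0 rose and 4 fell, and in GmNFYA 1 rose and 2 fell, with medians of -0.25 and 0.09 on the log2 scale. Of the 10 around the chromosome 15 cluster 7 were tested, of which 2 rose and 2 fell in Jack, and 1 rose and 1 fell in GmNFYA, with medians of 0.13 and -0.05. Over all 36390 IDs tested in root, 20695 were called in Jack, 50.9% of them higher. In GmNFYA 20640 were called, 50.4% of them higher. The largest increase among these neighbours was that of 15G026900, from 8.03 ± 0.345 to 54.4 ± 12.8 CPM in Jack roots (log2 2.75 ± 0.17, adjusted p = 9.99e-09) and from 9.33 ± 1.59 to 34 ± 3.66 CPM in GmNFYA roots (log2 1.86 ± 0.17, adjusted p = 3.05e-07). 15G026000 fell in Jack and GmNFYA roots (log2 -0.77 and -1.64, adjusted p = 0.00607 and 3.75e-06). On chromosome 13, 13G347200 was lower with NaCl in both (log2 -1.44 and -1.76). Its mean went from 0.866 to 0.336 CPM in Jack roots and from 1.01 to 0.295 CPM in GmNFYA roots. It is among the IDs counted as falling above, but passed the minimum count only through the untreated roots and had to differ.

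**Figure D5:**
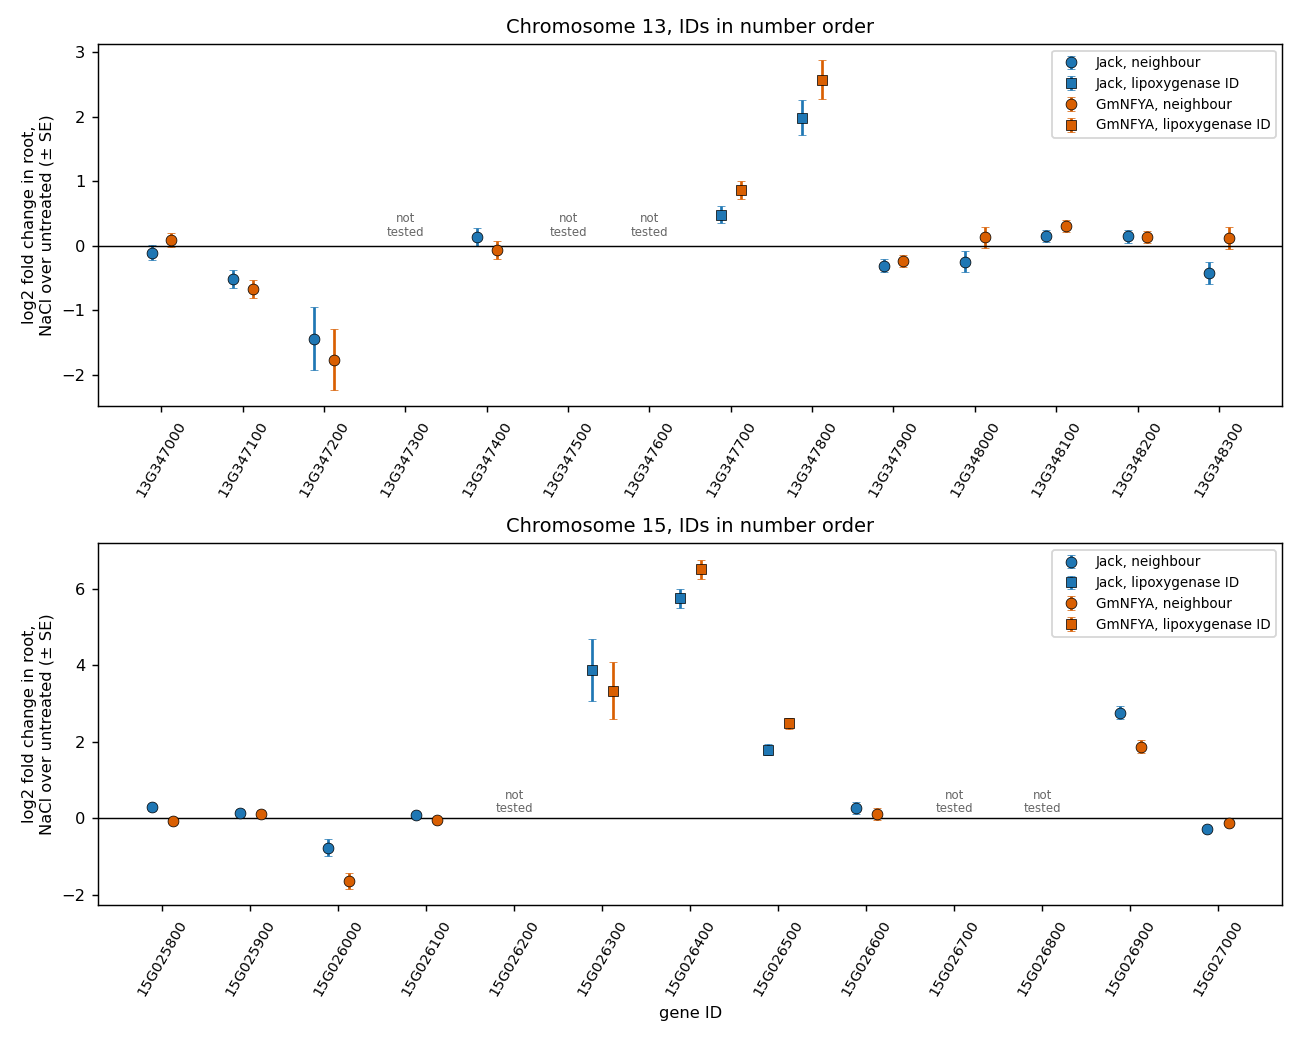
Log2 fold change with NaCl in root (± SE) for the lipoxygenase IDs (squares) and the 5 IDs on each side of each cluster (circles), in order of ID number, blue for Jack and orange for GmNFYA. IDs below the minimum count are marked as not tested. All squares lie above 0, from 0.48 to 6.5, while the circles run from -1.76 to 2.75.

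The IDs whose levels most resembled the main member of each cluster were found by Pearson's r of log2 CPM over the 12 libraries of a tissue, as a description over libraries that share treatment and genotype. 04G105900 was among the closest 2 to 15G026500 in leaf (r = 0.985) and in root (r = 0.993). Its level was 77.9 ± 24.6 CPM in untreated and 38.7 ± 3.68 CPM in treated Jack leaf, and 8.93 ± 0.596 and 34.5 ± 3.05 CPM in Jack root. The direction of its change follows from how it was chosen and was given no test. The other closest IDs to 15G026500 were 08G350800 in leaf (r = 0.981) and 09G155500 in root (r = 0.993). In the tissue not used to choose them, their levels were as follows. 08G350800 was at 207 ± 47.9 CPM in untreated and 153 ± 30.6 CPM in treated Jack root (log2 -0.44 ± 0.21, adjusted p = 0.0976), and at 269 ± 61.2 and 158 ± 18.5 CPM in GmNFYA root (log2 -0.77 ± 0.21, adjusted p = 0.00816). 09G155500 was at 20.2 ± 2.37 CPM in untreated and 22.4 ± 3.31 CPM in treated GmNFYA leaf (log2 0.15 ± 0.54, adjusted p = 0.862), and at 49.1 ± 33.2 and 7.64 ± 2.52 CPM in Jack leaf (log2 -2.68 ± 0.57, adjusted p = 0.00614). For 13G347700 they were 15G221300 and 15G238500 in leaf (r = 0.979 and 0.978) and 07G055900 and 18G232000 in root (r = 0.982 and 0.979). In leaf 13G347700 and 15G026500, one from each chromosome, had r = 0.927 with each other, at rank 32 of 35221 IDs for 13G347700, while in root r was 0.839, at rank 1552 of 36389. 15G026400 was at rank 862 for likeness to 15G026500 in root (r = 0.954) and at rank 17423 in leaf (r = 0.046). High r was common in root, where 3447 IDs had r of at least 0.9 with 15G026500, against 249 in leaf. With group means removed, r of 15G026400 with 15G026500 was -0.077 in root and 0.764 in leaf.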

How the data were processed

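Whole-number read counts per gene, without normalization, were deposited by the authors in a leaf table and a root table of 12 libraries each. The labels' protocols give TRIzol for RNA extraction and standard Illumina library preparation. The submitters' processing notes name HISAT2, featureCounts and DESeq2, with no version and no role. No source used here gives the genome build, the annotation release or the strand setting, so reads from overlapping or antisense genes cannot be told apart. Of 57110 rows, 5 held reads assigned to no gene and were left out, and 70.8 to 81.2% of reads were assigned to genes. Reads aligned to more than 1 place count for no gene.

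Leaf, root and both tissues together were fitted with edgeR 4.0.16 in R 4.3.3 on all IDs that passed filterByExpr (minimum count 10): 35222, 36390 and 39003. Scaling was by TMM, dispersions were robust, the groups were the only terms, and each contrast of group means got a quasi-likelihood F test. The SE is the size of the log2 change divided by the square root of F. Intervals cover 95%. The call rule was an adjusted p under 0.05. For correlations, log2 CPM had a prior count of 2. Same-numbered libraries were checked for shared deviations (1 and 4 of 18 pairs over 0.1 in root and leaf). In leaf 12 of 12 libraries correlated best with their own number, and in root 5 of 12. The median r in leaf was 0.048 for the same number and -0.015 for different numbers. The labels name no pairs, and the number was used only as a block in an alternative fit. No libraries of a group were alike within sampling noise. The procedure was tested on simulated data.

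The members, lists, tests and rules for named IDs (all 7 members, up to 2 called neighbours per direction, the 2 IDs most like the main member of each cluster) were chosen with earlier results of these data known. Gene lists and tissue markers fixed by description could not be filled, since no table used here pairs the IDs with descriptions, and were not tested. Alternatives were DESeq2 1.42.0, RLE size factors, no minimum count, a replicate block, only the compared groups, and each library left out.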

Additional observations from a re-analysis of the deposited data

Results flagged for a closer look

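The NaCl response of 9 ID and contrast combinations differed between groups by a test of the difference itself (edgeR's quasi-likelihood interaction test, adjusted p under 0.05). The root change was more positive than the leaf change in Jack by 6.32 on the log2 scale for 15G026400, 3.99 for 13G347800, 2.81 for 15G026500 and 1.35 for 13G347700. In GmNFYA the same differences were 5.18, 2.48, 3.23 and 1.67. In root, the change of 15G026500 was more positive in GmNFYA than in Jack by 0.69. That call was lost in the fit with the replicate block (adjusted p = 0.0537) and with several single libraries left out, as given above.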

How the results depend on the processing

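The counts of called lipoxygenase IDs were within 1.5 times the reported count in 176 of 196 alternative fits. Outside single left-out libraries, 3 counts moved. With only the compared groups, 1 ID was called with NaCl in Jack leaf. DESeq2 called 1 between the genotypes in untreated leaf, and the replicate block left 0 for the root interaction (15G026500, adjusted p = 0.0537). The block moved no other count of called members by over 1.5 times. Same-numbered libraries deviated together (r over 0.1) in 4 of 18 pairs in leaf and 1 of 18 in root. The labels name no pairs, and the main fits have no term for the replicate number. As a hint from the data, 12 of 12 leaf and 5 of 12 root libraries correlated best with their own number. Leaf libraries of the same number may therefore share deviations that the main leaf tests leave out. With single libraries left out, the counts ran from 1 to 3 for NaCl in Jack leaf, 0 to 2 for NaCl in GmNFYA leaf, 0 to 1 for the genotypes in untreated leaf, 0 to 1 for the leaf interaction, 1 to 2 for the genotypes in NaCl root and 0 to 1 for the root interaction. Of 916 single log2 changes, 860 kept direction and call, 32 lost the call, 8 gained it and 16 changed sign, the last all in values that were not called and with 1 library left out. Their ranges were -0.95 to 0.02 for 15G026400 with NaCl in Jack leaf, -0.03 to 0.27 for 13G347800 with NaCl in GmNFYA leaf, -0.17 to 0.31 for 13G347700 and -0.42 to 0.02 for 15G026500 between the genotypes in untreated leaf, -0.11 to 0.36 for 13G347700 in the leaf interaction, and -0.06 to 0.72 for 13G347800 between root and leaf in Jack with NaCl. For 15G026300 in root they were -0.29 to 3.97 between untreated genotypes, -0.45 to 0.19 with NaCl and -4.15 to 0.1 for the interaction. Over all IDs, 7498 were called with NaCl in Jack leaf with only the compared groups, against 11823. DESeq2 called 2863 between the genotypes in untreated leaf, against 1590, and 1908 in the leaf interaction, against 863, where the replicate block called 1385. With 1 library left out, the genotype counts over all IDs ran from 511 to 1761 in untreated leaf, from 1527 to 3307 in NaCl leaf (against 3384), from 5648 to 8622 in untreated root (against 8490) and from 3868 to 6214 in NaCl root (against 6168), and the leaf interaction from 229 to 1339. The causes were not tested. Depth limits 13G347500, 13G347600 and 15G026300, whose few reads allow no firm value.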
